A study of Mus musculus with 8 samples.

Results

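Selenoprotein P, 3 smaller selenoproteins and 4 glutathione peroxidases were followed by RNA-seq in mouse pancreatic ductal adenocarcinoma (PDAC) cells in which *Smad4* could be switched off and on and TGFβ signaling could be stimulated or blocked. The 8 genes were taken by name from a table of 53465 genes: *Selenop*, *Selenow*, *Selenom*, *Selenok*, *Gpx1*, *Gpx2*, *Gpx3* and *Gpx4*. They were chosen with their levels in all 8 libraries already known, so their levels, fold changes and calls are given as a description, with no test. No single p-value of a member is given, and counts of members past a threshold, here and in the plot of fold changes, are part of that description.

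The cells were lines B73 and B87, each grown from the primary pancreatic tumor of a mouse with Ptf1a-Cre. At Rosa26 the mice carried LSL-rtTA3-IRES-mKate2, and at Col1a1 a *Smad4* short hairpin RNA (shRNA), linked to GFP, that is made only in doxycycline (Dox). In both lines Cre was driven in the pancreatic lineage, and each line stands for the tumor of a single mouse. Smad4-off cells stayed on Dox, whereas Smad4-on cells had spent 5 days without it before plating. From 24 h after plating, each received 100 pM TGFβ1 or 2.5 µM SB505124 for 24 h. SB505124 blocks the kinase of the type I TGFβ receptor. The 4 groups held 1 library per line, so n = 2 throughout and the lines are the replicates. Every Smad4-on library was also free of Dox, and no line with a control shRNA is part of the comparison, so *Smad4* restoration and Dox withdrawal cannot be told apart. No library without either agent is part of the comparison, so stimulation by TGFβ1 and the block by SB505124 cannot be told apart. Below, a response to TGFβ1, or a rise or fall under it, means the difference from SB505124. Levels are CPM, in which each library is brought to the same total by TMM, a trimmed mean of log ratios between libraries.

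Selenoproteins carry selenocysteine, an amino acid that is inserted at UGA, elsewhere a stop codon, with the help of a structure in the untranslated end of the mRNA. Selenoprotein P is secreted, mainly by the liver, and carries selenium to other tissues, where receptors such as LRP8 take it up. The glutathione peroxidases (GPX) use glutathione to reduce hydrogen peroxide and, in the case of GPX4, lipid peroxides, which places GPX4 at the centre of resistance to ferroptosis. Their supply of glutathione depends on cystine import by SLC7A11 and on synthesis by glutamate-cysteine ligase (GCLC and GCLM) and glutathione synthetase (GSS).

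The selenocysteine codons show what the 8 genes share and where *Selenop* stands apart. In GENCODE M21 (GRCm38), each of the 8 genes has an annotated selenocysteine codon, and *Selenop* has 10 of them against 1 in each of the others. They lie at codons 59, 259, 277, 318, 330, 352, 366, 368, 375 and 377 of the 380 codons of transcript Selenop-201, so that 9 of the 10 lie from codon 259 onward. *Selenok* has its codon at position 92 of 94, almost at the end. In the coding stretches below, 5′ to 3′, the selenocysteine codon named on the line is in capitals, with up to 12 bases on each side. *Selenop* is represented by its first codon, its last codon and codon 366, and the windows of codons 366 and 377 also hold codons 368 and 375, as tga in lower case.
*Selenop*, codon 59: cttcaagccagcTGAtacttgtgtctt
*Selenop*, codon 366: gccaaccccaacTGAagctgagataat
*Selenop*, codon 377: aggaagtgaaaaTGAcattcaaac
*Selenow*, codon 13: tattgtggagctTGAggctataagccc
*Selenom*, codon 48: acctgtggaggaTGAcagttgaatcgc
*Selenok*, codon 92: atggctggtggaTGAggaagg
*Gpx1*, codon 47: gtcgcgtctctcTGAggcaccacgatc
*Gpx2*, codon 40: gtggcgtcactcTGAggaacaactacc
*Gpx3*, codon 73: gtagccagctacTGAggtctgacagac
*Gpx4*, codon 129: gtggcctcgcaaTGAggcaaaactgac

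The 8 libraries held 18389235 to 23440550 counts each, and 6 of the 8 genes had enough counts to be tested. The target itself, *Smad4*, was at 33.7 to 35.5 CPM in the 4 Smad4-off libraries and 97.4 to 117 CPM in the 4 Smad4-on libraries. This was a log2 fold change of 1.73 ± 0.092 (SE, edgeR quasi-likelihood adjusted p = 0.00084) with TGFβ1 and 1.62 ± 0.092 (edgeR adjusted p = 0.00234) with SB505124. All 6 ductal epithelial markers passed the filter on low counts, though *Epcam* was at only 0.153 to 2.11 CPM. A call below means an adjusted p (Benjamini-Hochberg, over the 14301 genes tested) under 0.05 together with a change of more than 2-fold.

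*Selenop* (ENSMUSG00000064373; chr15:3268547-3280508, plus strand) encodes the secreted selenium carrier and varied far more than any other detected member. In B73 it was at 187 CPM in Smad4-off and 269 CPM in Smad4-on cells under SB505124, and at 51 and 27.2 CPM under TGFβ1. In B87 the same 4 libraries were at 120, 165, 31.9 and 16 CPM. All 4 TGFβ1 libraries thus lay below all 4 SB505124 libraries. *Smad4* went with a higher level when the receptor was blocked and a lower level when it was stimulated, in each line.

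With TGFβ1 in place of SB505124, *Selenop* in Smad4-on cells kept 10.1% of its level in B73 and 9.72% in B87. The group means were 217 ± 73.7 CPM under SB505124 and 21.6 ± 7.92 CPM under TGFβ1 (SD, n = 2), a log2 fold change of -3.33 ± 0.083 (SE). In Smad4-off cells it kept 27.2% in B73 and 26.6% in B87, with group means of 154 ± 47.5 and 41.5 ± 13.5 CPM and a log2 fold change of -1.89 ± 0.077. The SD of each group reflects the difference between its 2 lines, and *Selenop* was lower in B87 in all 4 conditions (log2 difference -0.69 ± 0.054). The response to TGFβ1 was nearly the same size in the 2 lines, at -3.30 and -3.36 with *Smad4* on and -1.87 and -1.91 with *Smad4* off, for B73 and B87.

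The *Smad4* effect on *Selenop* had opposite signs under the 2 treatments. Under TGFβ1 the Smad4-on level was 53.3% of the Smad4-off level in B73 and 50.1% in B87, and the groups did not overlap (log2 fold change -0.95 ± 0.080). Under SB505124 it was 1.44-fold higher in B73 and 1.37-fold higher in B87, and the groups overlapped, with Smad4-on B87 at 165 CPM below Smad4-off B73 at 187 CPM (log2 fold change 0.49 ± 0.074). The difference of the 2 *Smad4* effects was -1.44 ± 0.109 on the log2 scale, at -1.43 in B73 and -1.45 in B87. These contrasts share libraries and are not independent of each other. In bulk RNA, fewer cells with *Selenop* and less *Selenop* per cell cannot be told apart.

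**Figure D1:**
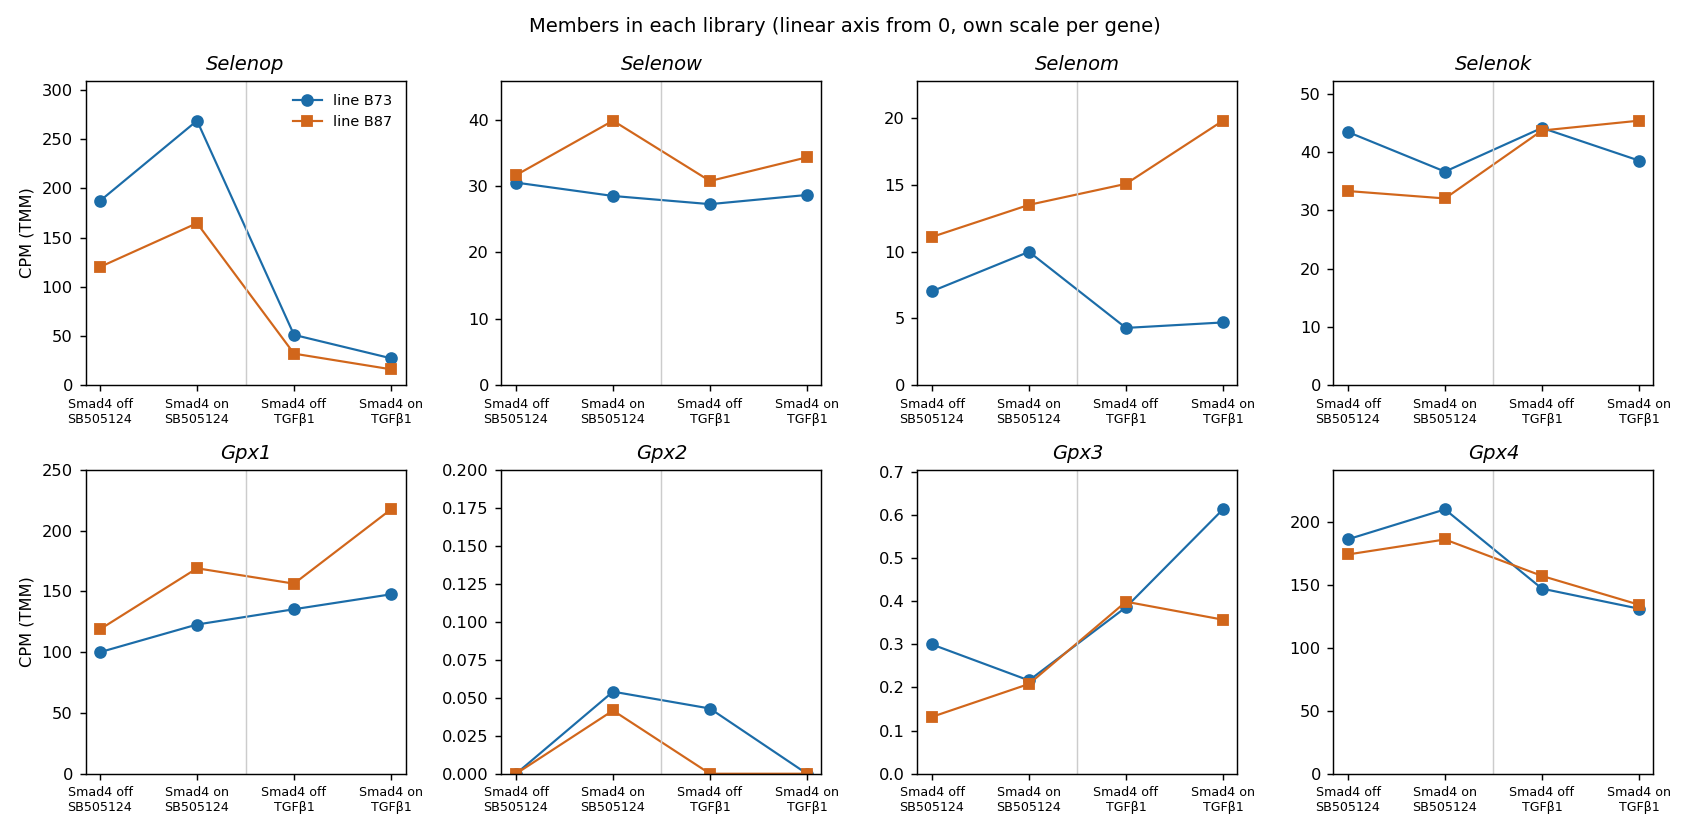
CPM (TMM, linear axis from 0, a separate scale for each gene) of the 8 genes in each library, with line B73 as circles and B87 as squares over the 4 combinations of *Smad4* state and treatment. *Selenop* runs from 16 to 269 CPM and is lower in both lines under TGFβ1, *Gpx1* and *Gpx4* stay within 100 to 217 CPM and 131 to 210 CPM, and *Gpx2* never exceeds 1 count.

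Markers of hepatocytes and macrophages, cells known to express *Selenop*, were low, whereas fibroblast markers in B87 were not. The 5 hepatocyte markers summed to 0 to 0.15 CPM per library, none exceeded 3 counts, and *Serpina1a* was at 0 in every library. The 5 macrophage markers summed to 1.33 to 6.44 CPM, nearly all of it *Cd68*, with *Adgre1* at 0 and *Ptprc* at 0 to 3 counts. The 5 fibroblast markers were at 3.08 to 12.8 CPM under SB505124 and 7.55 to 37 CPM under TGFβ1 in B73, against 38.6 to 134 and 207 to 652 CPM in B87, mostly *Col1a1* and *Col3a1*, with *Lum* at 0. The acinar sum was at most 1.37 CPM. The 6 ductal markers were at 1650 to 6180 CPM under SB505124 and 1170 to 5720 CPM under TGFβ1. The endothelial sum was at 0.756 to 5.14 CPM under SB505124 and 3.32 to 26 CPM under TGFβ1. The macrophage and ductal sums were lower, and the fibroblast and endothelial sums higher, with TGFβ1 than with SB505124 in each line and *Smad4* state, and their part in the *Selenop* difference was not tested. The last stretch of *Selenop*, 439 bases, lies over *Ccdc152* on the opposite strand, and 12.7% of its 75-base stretches also occur there as antisense. *Ccdc152* itself had 0 to 11 counts, against 314 to 4976 for *Selenop*.

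The start region of *Selenop* was read for letters that known factors bind, since *Selenop* alone of the set differed by this much. RefSeq (GRCm38.p6) gives 3 start windows for *Selenop* and 13 for all 8 genes, each with 250 bases before and 50 after a start. In the third *Selenop* window, a match to GTAAACA, which forkhead factors bind, stands close to the TATA-box sequence TATAAAA, both in capitals here. The stretch ends 3 bases before the RefSeq start.
chr15:3270953-3270973, plus strand: GTAAACAacagggcTATAAAA
Neither motif was in any other window of the 8 genes, read on both strands, while GTAAACA was in 3.65% and TATAAAA in 5.48% of all 32851 windows. The SMAD palindrome GTCTAGAC was in none of the 13 windows (0.213% of all), and no *Selenop* window held the short SMAD element CAGAC, which was in 9 of the 13 and in 49.6% of all. The antioxidant response element TGACNNNGC was in 1 of the 13, that of *Selenok*, and in 12.4% of all. These are matches of letters in 300-base windows, and binding was not measured. All 3 *Selenop* windows lie downstream of its annotated gene start at chr15:3268547, around which no sequence was read.

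*Gpx4* (ENSMUSG00000075706; chr10:80047166-80056439, plus strand), the lipid peroxide reductase, differed between groups in the same directions as *Selenop*, by much less. In B73 it was at 186, 210, 147 and 131 CPM in the order Smad4 off and on under SB505124, then Smad4 off and on under TGFβ1. In B87 it was at 174, 186, 157 and 134 CPM in this order. All TGFβ1 libraries lay below all SB505124 libraries, as for *Selenop*. The log2 difference between TGFβ1 and SB505124 was -0.58 ± 0.091 (SE) with *Smad4* on and -0.24 ± 0.091 with *Smad4* off. *Smad4* restoration gave -0.20 ± 0.091 under TGFβ1 and 0.14 ± 0.091 under SB505124. The difference of these effects was -0.33 ± 0.128, at -0.34 in B73 and -0.32 in B87. Of the 75-base stretches of *Gpx4*, 29.8% also occur in the pseudogene *Gpx4-ps2*, which had 58 to 125 counts against 2566 to 4469 for *Gpx4*, and how reads common to both were counted is not stated.

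*Gpx1* (ENSMUSG00000063856; chr9:108338903-108340343, plus strand), the abundant cytosolic peroxidase, differed the other way under TGFβ1. In B73 it was at 100, 123, 135 and 148 CPM, and in B87 at 119, 169, 156 and 217 CPM, in the same order of groups. Within each line both TGFβ1 and *Smad4* went with a higher level, and the lowest library of each line was Smad4 off under SB505124. The log2 difference between TGFβ1 and SB505124 was 0.32 ± 0.105 with *Smad4* on and 0.42 ± 0.106 with *Smad4* off, and that between Smad4 on and off was 0.30 ± 0.105 under TGFβ1 and 0.40 ± 0.106 under SB505124. The difference of the *Smad4* effects was small against its error, at -0.10 ± 0.149. *Gpx1* was higher in B87 than in B73 in every condition (0.37 ± 0.075).

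The gastrointestinal and plasma peroxidases were at or near the limit of detection. *Gpx2* (ENSMUSG00000042808; chr12:76792333-76795554, minus strand) had 1 count in 3 libraries and 0 in the other 5, under the 3 counts taken as detectable, which correspond to 0.125 to 0.162 CPM. It lies inside *Fntb*, on the opposite strand, which had 413 to 613 counts. *Gpx3* (ENSMUSG00000018339; chr11:54902453-54910377, plus strand) had 6, 4, 9 and 12 counts in B73 and 3, 5, 8 and 7 in B87. Neither passed the filter, so 6 of the 8 genes were tested. The TGFβ1 libraries held more *Gpx3* counts than the SB505124 libraries, 7 to 12 against 3 to 6, too few to say more.

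The 3 small selenoproteins showed no common direction. *Selenow* (ENSMUSG00000041571; chr7:15917208-15922402, minus strand), a small thioredoxin-like protein, stayed within 27.3 to 30.5 CPM in B73 and 30.8 to 39.9 CPM in B87. Its log2 differences between treatments and between *Smad4* states lay between -0.11 and 0.12, each with an SE of 0.125. The lines differed in sign for *Smad4* on against off under SB505124, at -0.098 in B73 and 0.332 in B87. They also did for TGFβ1 against SB505124 with *Smad4* on, at 0.008 and -0.215, and shared a sign in the other such differences. *Selenok* (ENSMUSG00000042682; chr14:29968308-29975662, plus strand), a membrane protein of the endoplasmic reticulum, was at 43.4, 36.6, 44.1 and 38.5 CPM in B73 and at 33.3, 32, 43.7 and 45.4 CPM in B87. Its difference between TGFβ1 and SB505124 was 0.07 in B73 and 0.50 in B87 with *Smad4* on, and 0.02 and 0.39 with *Smad4* off. Of its 75-base stretches, 8.75% also occur in other genes, mostly *Gm48228*.

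*Selenom* (ENSMUSG00000075702; chr11:3514684-3517351, plus strand), a redox protein of the endoplasmic reticulum, differed between the lines in level and in direction. In B73 it was at 7.04, 10, 4.29 and 4.7 CPM, and in B87 at 11.1, 13.5, 15.1 and 19.8 CPM. All 4 B87 libraries thus lay above all 4 B73 libraries, with a log2 difference of 1.23 ± 0.292 (SE). With *Smad4* on, the difference between TGFβ1 and SB505124 was -1.08 in B73 and 0.55 in B87, and with *Smad4* off it was -0.70 and 0.44. The pooled values, -0.20 ± 0.404 and -0.09 ± 0.407, average lines that differed in direction and describe neither. A term for the difference of the lines in the response to TGFβ1 came to 1.40 ± 0.224 for *Selenom* and -0.04 ± 0.102 for *Selenop*, and edgeR called 0 of 14301 genes for that term (1198 had an unadjusted p under 0.05).

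**Figure D2:**
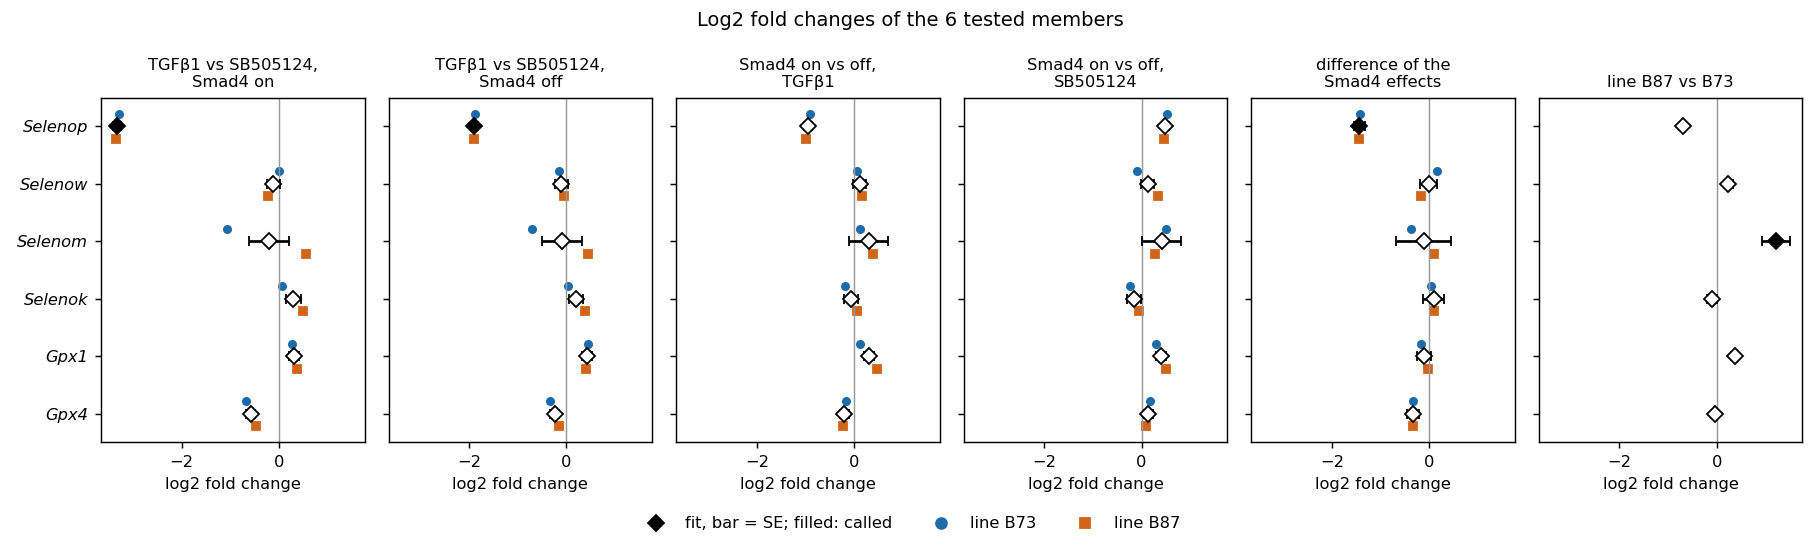
Log2 fold changes of the 6 tested genes in the 6 contrasts, as diamonds with the SE as bars (filled when adjusted p was under 0.05 and the change over 2-fold), with the value in B73 as circles and in B87 as squares. *Selenop* reaches -3.33 and -1.89 under TGFβ1 with *Smad4* on and off, the lines nearly coincide for it, and for *Selenom* they fall on opposite sides of 0.

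Counting calls, 1 of the 6 tested members, *Selenop*, was called between TGFβ1 and SB505124 with *Smad4* on, where 13.9% of all tested genes were called, and again with *Smad4* off, where 5.93% were. *Selenop* was also the only member called for the difference of the *Smad4* effects, among 0.189% of all tested genes. No member was called for *Smad4* on against off, under TGFβ1 (3.12% of all tested genes) or under SB505124 (1.09%). In both, 2 of the 6 had an unadjusted edgeR p under 0.05 and DESeq2 with the line called 0. *Selenop* missed the 2-fold rule under TGFβ1, at 1.93-fold. *Selenom* was the 1 member called between the lines, where 8.37% of all genes were. Nothing is read from these counts, because the members were selected on the same contrasts. The *Selenop* call for the difference of the *Smad4* effects was lost when any B73 library, or the Smad4-off TGFβ1 library of B87, was left out, while its value stayed between -1.48 and -1.40. With no replicate block, that is without the cell line that pairs the libraries, this count of members was 0, and so was that for TGFβ1 with *Smad4* off. The *Selenom* call between the lines was lost when any 1 of the 4 TGFβ1 libraries was left out.

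Per length, *Selenop* stood anywhere from second to sixth in the order of the 8 genes, depending on the library. Scaled by the gene length in the deposited table, *Selenop* in Smad4-on cells under SB505124 was at 94.6 CPM per kb in B73, between *Gpx4* at 122 and *Gpx1* at 85.2, and at 57.9 CPM per kb in B87. Under TGFβ1 with *Smad4* on it was at 9.57 and 5.63 CPM per kb, below *Gpx1*, *Gpx4*, *Selenow* and *Selenok* in both lines and below *Selenom* in B87. *Gpx4* stood above *Gpx1* in Smad4-off cells under SB505124, at 108 against 69.4 CPM per kb in B73 and 101 against 82.5 in B87. The order was turned round in Smad4-on cells under TGFβ1, at 76 against 102 and at 77.8 against 151. In the other 2 groups their order depended on the line or on the length used. The tabulated length exceeds that of the longest coding transcript in GENCODE for every member except *Selenow* (1724 against 995 bases for *Gpx4*, 736 in both for *Selenow*). The order was therefore also taken with the longest coding transcript, a choice made after the data were seen. The rank of *Selenop* was then the same in 6 of the 8 libraries.

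**Figure D3:**
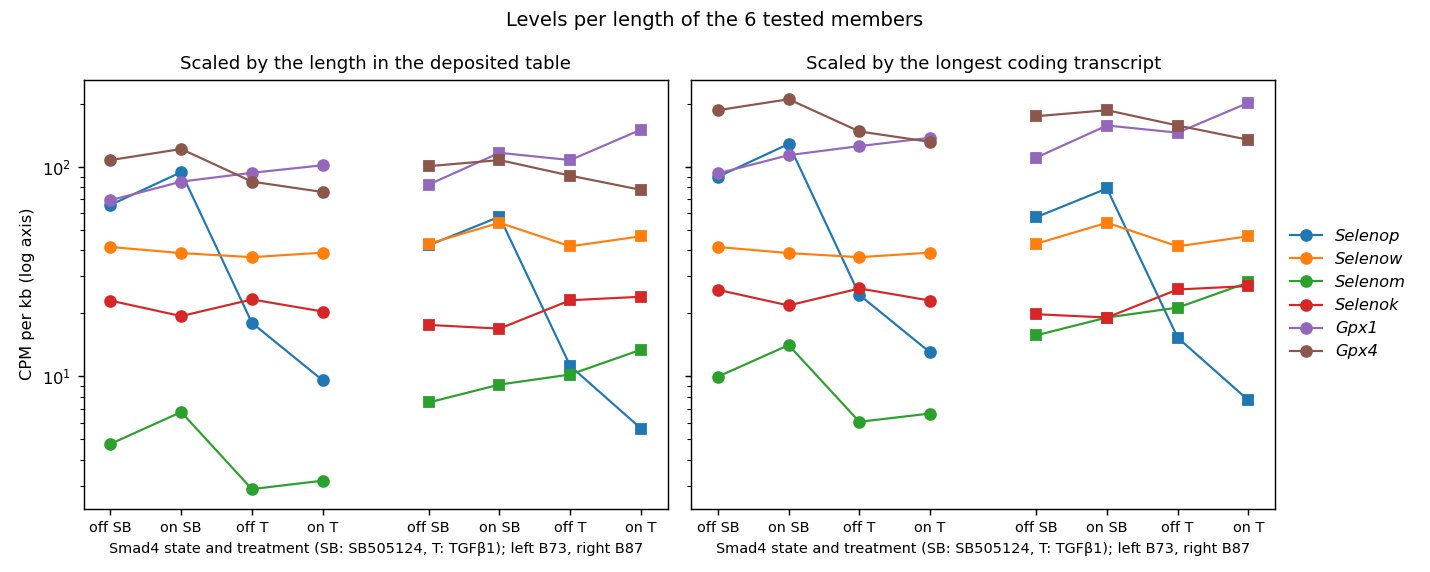
CPM per kb (log axis) of the 6 tested genes in each library, scaled by the length in the deposited table on the left and by the longest coding transcript on the right, with B73 on the left and B87 on the right of each panel. *Selenop* goes from 94.6 to 9.57 CPM per kb in Smad4-on B73 cells between SB505124 and TGFβ1 with the tabulated length and crosses *Selenow* and *Selenok* on the way in both panels.

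Among 11099 candidates (mean log2 CPM 1 or more), the 5 genes whose log2 CPM followed *Selenop* most closely over the 8 libraries were *Gclc* (Pearson r = 0.997), *Gsta4* (0.996), *Lamb2* (0.995), *Ugt2b34* (0.991) and *Lifr* (0.991). *Gclc*, the catalytic subunit of glutamate-cysteine ligase, was at 386, 537, 127 and 68.6 CPM in B73 and 245, 348, 88.4 and 54.2 CPM in B87. It shares with *Selenop* the higher level with *Smad4* under SB505124, the lower level with *Smad4* under TGFβ1 and the lower level in B87. *Gsta4*, a glutathione transferase that acts on lipid aldehydes, ran from 594 to 2.6 CPM, and *Ugt2b34*, a glucuronosyltransferase, from 128 to 0 CPM. *Lamb2*, a laminin chain, and *Lifr*, the LIF receptor, covered 79.5 to 259 and 0.918 to 15 CPM. Of the other members, *Gpx4* was closest to *Selenop* (r = 0.951) and *Gpx1* farthest (r = -0.696). The closest gene to *Gpx4* was *Arrb1* (0.989), to *Selenow* *Trim32* (0.979), to *Selenom* *Amacr* (0.967), to *Gpx1* *Gcc1* (0.965) and to *Selenok* *Gatsl2* (0.963). These r are descriptions over 8 libraries that share 2 lines and 2 treatments, with the best of many genes picked.

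**Figure D4:**
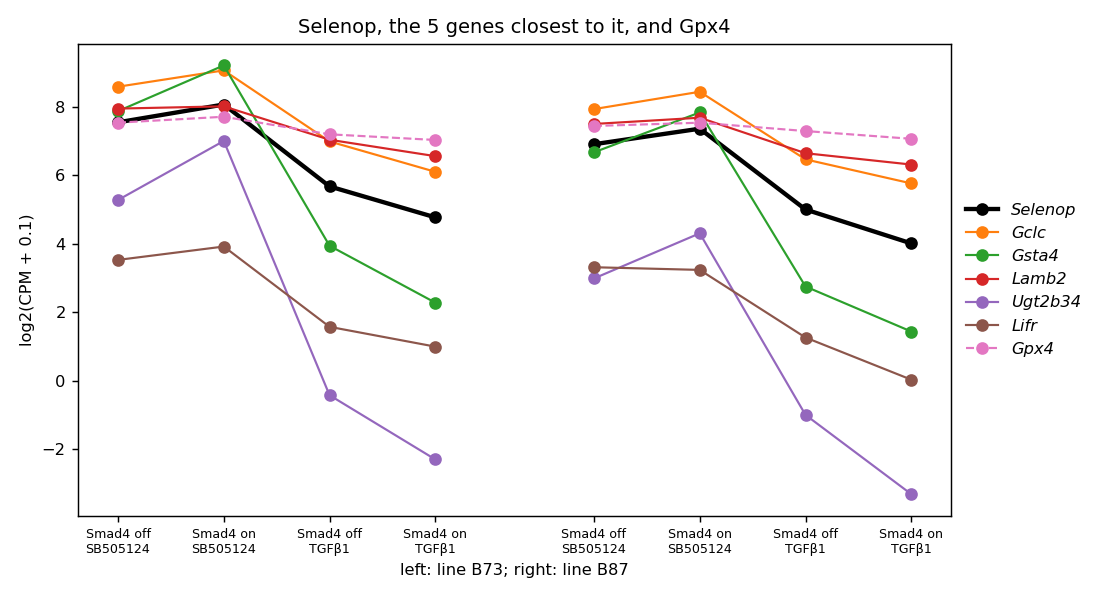
Log2 of CPM plus 0.1 for *Selenop* (thick black), the 5 genes closest to it and *Gpx4* (dashed) in the 4 groups of B73 on the left and B87 on the right. The 5 genes are at lower levels in both TGFβ1 groups of each line than in its SB505124 groups, most steeply *Ugt2b34* (128 to 0 CPM over all libraries), while *Gpx4* covers 131 to 210 CPM.

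The wider pathway was described with 58 genes in 6 lists, of which 53 passed the filter. These lists were also chosen with earlier results of these data known, so their p-values and calls are descriptive. Between TGFβ1 and SB505124 with *Smad4* on, 1 rose and 6 fell past both rules, 13.2% against 13.9% of all genes, and their median log2 fold change was -0.28 against -0.02 over all genes. With *Smad4* off, 0 rose and 4 fell, 7.55% against 5.93%. For *Smad4* on against off, edgeR called 0 of 53 under either treatment, where 3.12% of all genes were called under TGFβ1 and 1.09% under SB505124. Under TGFβ1, 14 of them had an unadjusted p under 0.05 and DESeq2 also called 0. Under SB505124, 12 did and DESeq2 called 1. For the difference of the *Smad4* effects 1 was called (1.89% against 0.189% of all genes), and between the lines 4 (7.55% against 8.37%).

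Glutathione synthesis and recycling held most of these calls. With *Smad4* on, 4 of its 10 genes were called lower under TGFβ1 and 0 higher, with a list median of -0.80. Of all tested genes, 8.31% were called lower and 5.62% higher in this contrast. *Slc7a11*, the cystine importer, was at 36.1 against 6.94 CPM in B73 and 201 against 14.9 CPM in B87 and fell by 3.14 ± 0.339 in log2 terms (edgeR adjusted p = 0.000821). *Gclc* fell by 2.82 ± 0.104 (edgeR adjusted p = 3.26e-05) and *Gclm*, the regulatory subunit of the same ligase, fell by 1.497 ± 0.123 (edgeR adjusted p = 0.000289). *Gss*, the last step of synthesis, named here after its values were seen, fell by 1.33 ± 0.190 (edgeR adjusted p = 0.0025). With *Smad4* off, 2.82% of all tested genes were called lower. Of the 10 listed genes 3 were: *Slc7a11* (-1.58 ± 0.321), *Gclc* (-1.54 ± 0.099) and *Gclm* (-1.004 ± 0.121), for which edgeR gave an adjusted p of 0.0227, 0.000597 and 0.00372. With no replicate block none of the 4 pathway calls with *Smad4* off remained (count 0), and 2, 2 and 1 pathway genes were called without the Smad4-off TGFβ1 library of B73, the Smad4-off SB505124 library of B87 and the Smad4-off TGFβ1 library of B87. *Gclc* was the 1 pathway gene called for the difference of the *Smad4* effects, at -1.29 ± 0.138 (edgeR adjusted p = 0.038). That call was lost with no replicate block (count 0) and when any 1 of 7 of the 8 libraries was left out. *Gclc* was also picked above as the gene closest to *Selenop* in the same libraries, so its calls are not independent of *Selenop*.

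The other lists had few calls. Among 16 other selenoproteins, of which 14 were tested, *Dio3*, the thyroid hormone-inactivating deiodinase, was called lower under TGFβ1 with *Smad4* on, from 56 counts in B73 and 2 in B87 to 0 in both, at least 10.2-fold lower for the group mean, which B73 carries, against 3 counts per library (edgeR adjusted p = 0.00815). With *Smad4* off it went from 93 to 7 counts in B73 and from 16 to 0 in B87 (edgeR adjusted p = 0.0163). Of the 10 genes for other peroxide and superoxide enzymes, *Prdx5*, a peroxiredoxin, rose by a log2 fold change of 1.28 ± 0.126 with *Smad4* on (edgeR adjusted p = 0.000592), at 137 against 386 CPM in B73 and 110 against 228 CPM in B87. Some of this is uncertain, since 13.9% of its 75-base stretches also occur in *Trmt112*. Of the 8 genes of lipid peroxidation and iron, *Fth1*, the ferritin heavy chain that stores iron, fell by 1.48 ± 0.120 (edgeR adjusted p = 0.000282), with 2080 against 648 CPM in B73 and 1290 against 531 CPM in B87.

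Of the 4 GPX genes without selenocysteine, *Gpx5*, *Gpx6* and *Gpx7* had 0 counts and *Gpx8*, an endoplasmic reticulum peroxidase, was tested. *Gpx8*, named after its values were seen, was higher under TGFβ1 at 0.92 ± 0.135 with *Smad4* on and 0.67 ± 0.135 with *Smad4* off, for which edgeR gave an adjusted p of 0.00283 and 0.0227, short of the 2-fold rule. None of the 10 genes for selenium supply and selenocysteine insertion was called by edgeR in either TGFβ1 contrast. Their median log2 fold changes were -0.22 and -0.13 with *Smad4* on and off, against -0.02 over all genes in each. *Lrp8*, the selenoprotein P receptor, was at 62.7 to 90.4 CPM in all 8 libraries. *Scly*, which releases selenium from selenocysteine, was named after its values were seen. With *Smad4* on its log2 fold change against off was -0.85 ± 0.113 under TGFβ1 (edgeR adjusted p = 0.00893) and -0.75 ± 0.113 under SB505124 (edgeR adjusted p = 0.0291), also short of 2-fold. Between the lines, *Sod3* (4.58 ± 0.187), *Dio2* (1.85 ± 0.377) and *Slc7a11* (1.78 ± 0.232) were higher in B87 (edgeR adjusted p = 2.77e-05, 0.0163 and 0.00267), and *Dio3* (-3.48 ± 0.530) was lower (edgeR adjusted p = 0.00804). *Dio2* had at most 23 counts.

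**Figure D5:**
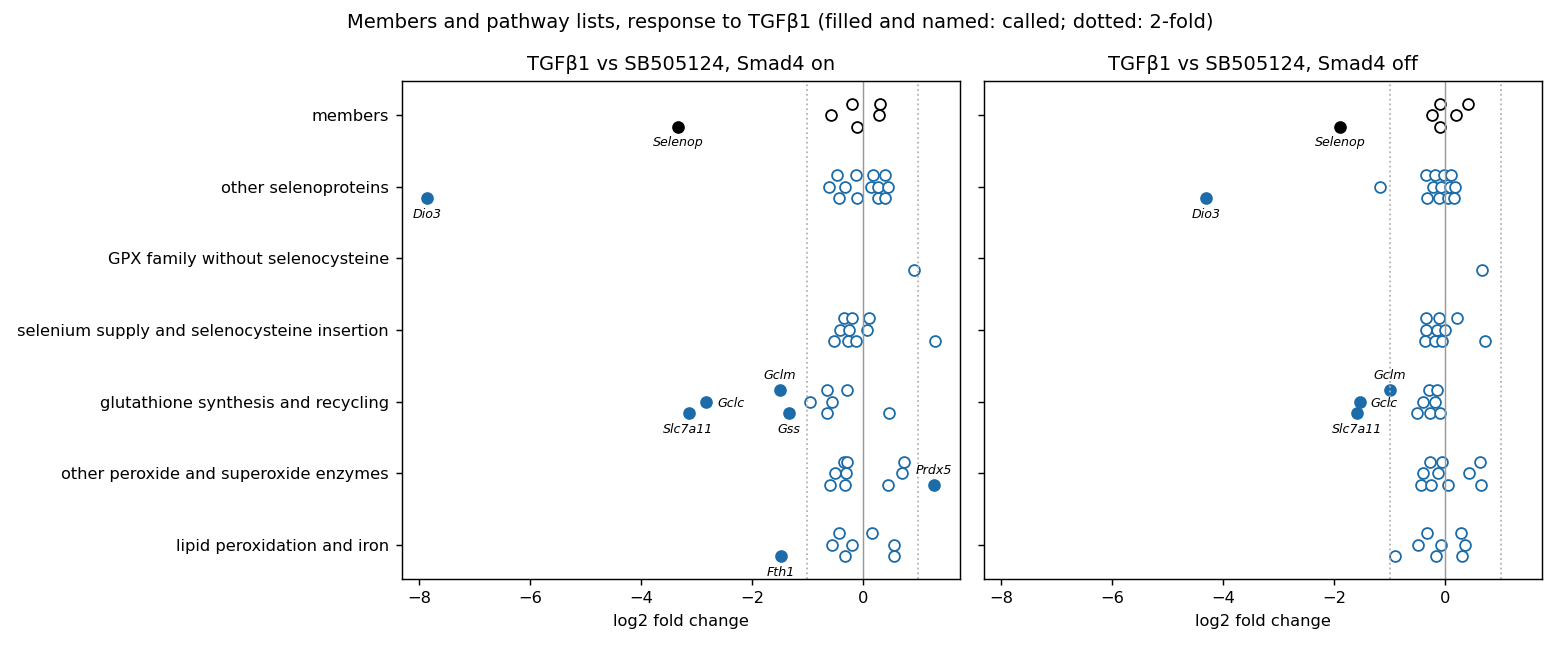
Log2 fold change between TGFβ1 and SB505124 of each tested member (black) and each tested gene of the 6 pathway lists (blue), with *Smad4* on at left and off at right, where filled and named points passed both rules and dotted lines mark 2-fold. With *Smad4* on, *Selenop* at -3.33 lies beside *Slc7a11* at -3.14 and *Gclc* at -2.82, and *Prdx5* at 1.28 is the filled point above 0. The fitted value of *Dio3* rests on low counts.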

How the data were processed

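The authors sequenced stranded poly(A) libraries as 75-bp single-end reads, processed, per the labels, with FastQC 0.11.5, Trimmomatic 0.36, STAR 2.5.3a and featureCounts 1.6.3 on GRCm38 (mm10), and deposited raw counts per Ensembl gene, 1 column per library. Settings for strand and multiply mapped reads are not given in the sources used here. Coordinates of all 8 members equal those in GENCODE M21.

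Counts were analysed with edgeR 4.0.16 in R 4.3.3: TMM scaling (factors 0.9238 to 1.0533), filterByExpr (14301 of 53465 genes), and a quasi-likelihood F-test with 4 groups and the cell line on all 8 libraries. Adjusted p-values are Benjamini-Hochberg over all tested genes, and SE was approximated by dividing the absolute log2 fold change by √F. Values per line are differences of log2 CPM (prior count 2). The study used DESeq2 and named no covariate. The line is named in every title and pairs the libraries: its deviations correlated between groups at r = 0.642 to 0.774. Nothing says that a line was cultured more than once per condition, so errors hold no separate spread between repeat cultures. With the line in the model, a constant difference in level between the 2 lines does not enter the SE. The spread behind the SE is estimated over all 4 groups and moderated across genes. The SE is therefore not a direct measure of how far the lines differed in any single contrast. Floors cover counting error only.

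Members, lists and tests were chosen with earlier results of these data known. Named genes were *Smad4*, all members, the called genes of each pathway list (at most the 3 with the largest change per contrast), the 5 genes closest to *Selenop* and the 1 closest to each other tested member. The scripts were tested on simulated data. Alternatives were DESeq2 1.42.0, its size factors, other filters, no fold rule, no line term and each library left out. Protein sequences were not used here. Figures were drawn with matplotlib 3.10.9 in Python 3.11.15. One further allele that both lines carry is not reported here.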

Additional observations from a re-analysis of the deposited data

Results flagged for a closer look

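The effect of *Smad4* differed between the treatments for *Selenop*: under TGFβ1 minus under SB505124 it was -1.437 ± 0.109 (log2, SE), and the effect had opposite signs under the 2 treatments in both lines. For *Gpx4* the same difference was -0.332 ± 0.128, again with opposite signs in both lines. Both genes were chosen with these values known, so both differences are descriptions and are given with no test.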

How the results depend on the processing

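With no fold rule, members called went from 0 to 1 for *Smad4* under each treatment, from 1 to 2 for TGFβ1 in each *Smad4* state and from 1 to 3 between the lines, and pathway genes from 0 to 7 and from 0 to 1 for *Smad4* under TGFβ1 and SB505124, from 7 to 26 and from 4 to 10 for TGFβ1 with *Smad4* on and off, and from 4 to 19 between the lines. The shares of all tested genes given above hold for the 2-fold rule. Those without a fold rule are not given, so nothing is read from these counts. With no replicate block, members called for TGFβ1 with *Smad4* off and for the difference of the *Smad4* effects went from 1 to 0 each, and pathway genes from 4 to 0 and from 1 to 0. No line contrast exists without the block, and the block changed no other count by over 1.5 times. With no filter on low counts (27770 genes), pathway genes called were 1 and 2 for *Smad4* under TGFβ1 and SB505124 and 2 for the difference of the effects. DESeq2 with the line gave 1 for *Smad4* under SB505124 and 2 for the difference, and at least 10 counts in every library gave 2 between the lines. Leaving out each library in turn, members called ranged from 0 to 1 for the difference of the effects and between the lines, and pathway genes from 0 to 1 for *Smad4* under SB505124 (1 without the Smad4-on SB505124 library of B87), from 1 to 4 for TGFβ1 with *Smad4* off and from 0 to 1 for the difference. The cause was not tested beyond the libraries or genes removed. Of 462 log2 fold changes of members, 423 moved by less than 1 SE and 39 by more. No called value changed sign, while values of *Selenom*, *Selenok*, *Selenow*, *Gpx1* and *Gpx4* that were not called did so in some contrasts. Among the members, *Gpx2* and *Gpx3* had too few counts to be tested.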
